A study of Mus musculus with 39 samples.

Results

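The mitosis genes described here are 37 genes of entry into mitosis, spindle assembly, chromosome segregation and cytokinesis, taken from the deposited table by symbol, ignoring case. All 37 were found among the 20520 genes listed, and all 37 passed the filter on low values, as did 13650 genes in all. They were measured in PB2 mouse breast tumors grown as grafts in 4 groups: p95HER2 tumors at day 22 after implantation (10 libraries) and at day 10 (10 libraries), and FL-HER2 tumors at day 22 (9 libraries) and at day 10 (10 libraries). p95HER2 is a truncated form of the receptor HER2 that lacks most of the extracellular domain, and FL-HER2 is the full-length receptor. Every tumor carried 1 of these constructs, so no group without HER2 enters these comparisons. Whole tumors were sequenced as poly(A) RNA, so fewer dividing cells and less RNA per cell cannot be told apart. The labels do not name the host strain or the promoter behind either construct, nor whether each library is 1 tumor or each tumor came from its own animal, so the p-values cover the spread among libraries, part or all of which may be technical. In 8 FL-HER2 libraries of day 10 the labelled tumor number runs to 5 digits, where every other library has 3, so those 8 may be pools.

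Cells enter mitosis when the kinase Cdk1 is activated by B-type cyclins, and Plk1 and the Aurora kinases then drive centrosome maturation, spindle assembly and the correction of faulty attachments between microtubules and kinetochores. The spindle checkpoint holds the anaphase-promoting complex, a ubiquitin ligase, until every kinetochore is attached. That ligase then marks securin and cyclin B for destruction, the sister chromatids part and the cell divides. The genes are switched on together in G2 by the MuvB complex with B-Myb and FoxM1 and repressed in quiescent cells by MuvB within the DREAM complex. MuvB binds a promoter element called the CHR, and the factor NF-Y binds CCAAT boxes nearby. In tumors the summed RNA of such genes is widely used as a readout of proliferation.

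Promoter sequences were used to show what these genes share, since the choice of members did not use them. RefSeq promoters of GRCm38.p6, from 250 bases before to 50 bases after the annotated start, were matched by symbol for 32 of the 37 genes. Only the first listed promoter of a gene was used, so other starts of the same gene were not searched. For Pttg1, Kif2c, Cdca8 and Kif4 the whole window lay inside the gene as annotated in GENCODE M21. Bases before the start of those genes in that annotation were not searched. The 5 without an entry were Foxm1, Ccna2, Aurkb, Tpx2 and Kif20a. Of the 32 promoters, 25 (78.1%) held a CHR, searched as TTTGAA or TTCGAA on both strands, against 13.7% of the promoters of the 10676 genes tested that had one. A CCAAT box, searched as CCAAT on both strands, was present in 75.0% of them, against 38.4% of the promoters of genes tested. Both motifs were present in 68.8%, against 5.82%, and at least 2 CCAAT boxes were present in 53.1%, against 14.4%. E2F sites, searched as TTTCCCGC, TTTCGCGC, TTTGGCGC or TTTGCCGC on both strands, were present in 1 promoter (3.12%, that of Cdk1), against 3.93%. TTCGAA reads the same on both strands and was counted once, and none of the motif forms contains another. Most CHR matches lay close to the start, with 24 of 35 at or after base -60, and 45 of 58 CCAAT matches lay between bases -150 and -1. Positions were not counted in the promoters of other genes, so these 2 counts have no background. A match is a run of letters and not a shown binding site.

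The promoters of Cdk1, Plk1, Cenpa and Top2a are shown because they carry both motifs. The window of Pttg1 is shown because it carries neither and its RNA went against the other members below. That window lies wholly inside the gene, whose start in GENCODE M21 is at base 43426251. Its lack of motifs thus says nothing of the bases before that start. Each sequence reads in the direction of transcription, with CHR and CCAAT matches on either strand in capitals, so that a CCAAT box on the opposite strand appears as ATTGG. They lie at chr10:69352863-69353162 on the minus strand (Cdk1), chr7:122159185-122159484 on the plus strand (Plk1), chr5:30666636-30666935 on the plus strand (Cenpa), chr11:99024140-99024439 on the minus strand (Top2a) and chr11:43425932-43426231 on the minus strand (Pttg1) of GRCm38.p6.
Cdk1: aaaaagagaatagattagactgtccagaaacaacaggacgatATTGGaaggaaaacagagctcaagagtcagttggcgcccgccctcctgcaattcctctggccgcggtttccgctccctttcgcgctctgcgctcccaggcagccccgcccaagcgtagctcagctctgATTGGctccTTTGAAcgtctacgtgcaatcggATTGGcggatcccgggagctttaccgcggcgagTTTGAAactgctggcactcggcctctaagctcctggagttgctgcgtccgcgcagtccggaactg
Plk1: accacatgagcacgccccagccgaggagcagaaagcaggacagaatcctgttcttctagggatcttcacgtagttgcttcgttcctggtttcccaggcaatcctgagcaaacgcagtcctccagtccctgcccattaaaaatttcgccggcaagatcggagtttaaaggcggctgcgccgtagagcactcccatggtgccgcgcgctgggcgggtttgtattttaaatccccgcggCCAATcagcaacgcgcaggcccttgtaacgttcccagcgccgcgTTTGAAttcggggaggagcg
Cenpa: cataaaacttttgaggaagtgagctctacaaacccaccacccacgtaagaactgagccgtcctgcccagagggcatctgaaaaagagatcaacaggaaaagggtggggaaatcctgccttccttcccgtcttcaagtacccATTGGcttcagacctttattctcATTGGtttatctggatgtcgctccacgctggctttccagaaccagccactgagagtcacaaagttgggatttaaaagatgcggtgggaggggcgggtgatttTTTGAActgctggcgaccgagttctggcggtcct
Top2a: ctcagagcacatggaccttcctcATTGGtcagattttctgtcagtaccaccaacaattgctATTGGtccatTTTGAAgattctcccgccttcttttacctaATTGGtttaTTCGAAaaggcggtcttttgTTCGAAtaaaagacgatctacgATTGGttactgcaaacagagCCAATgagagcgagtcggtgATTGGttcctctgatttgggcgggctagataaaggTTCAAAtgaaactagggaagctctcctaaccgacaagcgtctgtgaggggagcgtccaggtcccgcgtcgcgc
Pttg1: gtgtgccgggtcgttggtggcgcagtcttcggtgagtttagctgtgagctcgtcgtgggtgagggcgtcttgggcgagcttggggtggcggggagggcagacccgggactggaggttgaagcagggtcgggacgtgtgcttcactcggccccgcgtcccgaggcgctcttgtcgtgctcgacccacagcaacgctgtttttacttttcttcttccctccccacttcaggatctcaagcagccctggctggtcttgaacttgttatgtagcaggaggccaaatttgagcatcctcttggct
In Cdk1, the kinase of mitotic entry, CHR matches began at bases -71 and -15 from the start and CCAAT boxes at bases -208, -80 and -48. Plk1, the Polo kinase, had a CHR beginning at base 31 and a CCAAT box at base -14. Cenpa, the histone H3 variant of the centromere, had a CHR at base 17 and CCAAT boxes at bases -109 and -86. Top2a, the topoisomerase that untangles sister chromatids, held 4 CHR matches and 6 CCAAT boxes. Neither motif was found in the windows of Birc5, Mad2l1, Nuf2, Nusap1 and Pttg1, which shows only that these letters are not there.

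**Figure D1:**
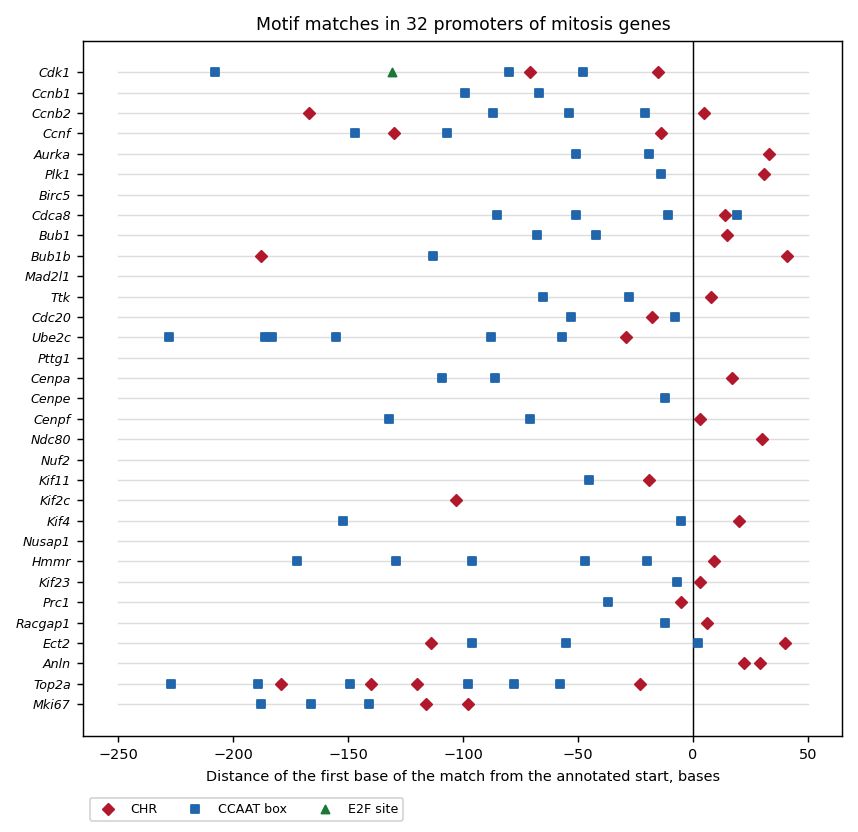
CHR, CCAAT box and E2F site matches in the promoters of 32 mitosis genes. Each row is 1 gene, the horizontal axis is the distance in bases of the first base of a match from the annotated start, and the symbols mark the 3 kinds of motif. CHR matches gather near the start, CCAAT boxes mostly just before it, and 5 rows hold none.

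Libraries held 21772259 to 44427621 reads, recovered whole from the deposited values, and levels below are given as CPM, the reads of a gene scaled to the same total per library. Log2 changes come from the deposited normalized values, which are scaled otherwise, so they need not match ratios of CPM. In FL-HER2 tumors Cenpa and Anln averaged 158 and 106 CPM at day 22, against 154 and 103 CPM at day 10, yet their log2 differences below are negative. The 37 genes together took 0.412% ± 0.041 of reads in p95HER2 tumors at day 22 (SD, n = 10) and 0.373% ± 0.033 at day 10 (n = 10). In FL-HER2 tumors they took 0.429% ± 0.014 at day 22 (n = 9) and 0.338% ± 0.052 at day 10 (n = 10). Other tissue was present too: skeletal muscle markers, all 20 of which passed the filter, summed to 0.00196% to 0.614% of reads in p95HER2 tumors at day 22 and 0.00436% to 1.07% at day 10, and to 0.0276% to 0.947% in FL-HER2 tumors at day 22 and 0.0511% to 3.92% at day 10. All 10 epithelial tumor markers passed the filter, and they summed to 0.195% to 0.300% of reads over all libraries.

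In FL-HER2 tumors the mitosis genes were higher at day 22 than at day 10. Of the 37 genes, 29 rose and 1 fell at a Benjamini-Hochberg adjusted p under 0.05 over all genes tested (limma on the deposited log2 values), against 20.7% of all genes tested that rose and 30.6% that fell. The median log2 change of the 37 was 0.23, a 1.17-fold difference, against -0.03 over all genes tested. All roles had genes that rose. Foxm1, 3 of the 5 cyclins and Cdk1, and 4 of the 5 Aurora and Polo kinases and passenger proteins rose. So did 3 of the 4 spindle checkpoint genes and 1 of the 3 genes that act with the anaphase-promoting complex or are its targets. The rest were 4 of the 5 kinetochore genes, all 6 spindle genes, 5 of the 6 cytokinesis genes and both genes of chromosome structure. The groups overlapped for all but 1 gene, Birc5, where every day 22 library lay above every day 10 library, as was so for 2.78% of all genes tested.

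Among the regulators, Foxm1, the forkhead transcription factor of G2 genes, had a lowest, median and highest level of 94.0, 102 and 114 CPM in FL-HER2 tumors at day 22, against 55.2, 80.2 and 104 CPM at day 10. Most day 22 libraries stood above most day 10 libraries, and the log2 change was 0.29 ± 0.07 (SE; limma adjusted p = 0.0012). Cdk1 had 74.0, 109 and 125 CPM at day 22, against 62.6, 99.2 and 112 CPM at day 10. Its ranges overlapped from 74.0 to 112 CPM, and its log2 difference on the deposited scale, 0.04 ± 0.10, was not called (limma adjusted p = 0.74). Ccnb1, cyclin B1 and partner of Cdk1, had 80.3, 101 and 113 CPM at day 22, against 60.9, 81.1 and 104 CPM at day 10, a log2 change of 0.18 ± 0.07 (limma adjusted p = 0.0394). Ccna2 (cyclin A2) and Ccnf (cyclin F) rose by 0.15 ± 0.06 and 0.20 ± 0.07 on the log2 scale, whereas cyclin B2, Ccnb2, differed by only 0.03 ± 0.07 (limma adjusted p = 0.75).

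In the kinase and passenger group, Birc5 (survivin, the passenger subunit that brings Aurora B to centromeres) had 181, 204 and 238 CPM at day 22, against 112, 143 and 176 CPM at day 10. Its log2 change was 0.43 ± 0.07, a 1.35-fold difference with the smallest adjusted p of the 37 (limma, 3.86e-06). Plk1 had 87.9, 101 and 115 CPM at day 22, against 65.1, 81.1 and 94.5 CPM at day 10. The lowest day 22 libraries lay within the day 10 range, and the log2 difference of 0.16 ± 0.07 was not called (limma adjusted p = 0.058). Cdca8 (borealin), Aurka and Aurkb rose by 0.24 ± 0.06, 0.24 ± 0.07 and 0.20 ± 0.08 on the log2 scale.

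Spindle checkpoint kinases rose, with log2 changes of 0.35 ± 0.08 for Bub1b (BubR1), 0.35 ± 0.09 for Ttk (Mps1) and 0.28 ± 0.08 for Bub1. Mad2l1, the Mad2 subunit of the checkpoint complex, differed by 0.14 ± 0.07 and was not called (limma adjusted p = 0.0897). Of the anaphase genes, Cdc20, the activator of the ligase, rose by 0.23 ± 0.06 on the log2 scale, and Ube2c, its ubiquitin-conjugating enzyme, differed by 0.08 ± 0.10 and was not called. Pttg1, securin, was the 1 gene of the 37 that fell. It had 10.2, 15.4 and 16.5 CPM at day 22, against 12.6, 18.02 and 25.3 CPM at day 10, a log2 change of -0.42 ± 0.14 (limma adjusted p = 0.0122). The ranges overlapped, with the day 22 libraries lower on the whole. It was called whichever library was left out, but in only 9 of the 16 settings tried: the call was lost with quantile normalization, log2(CPM + 1) values, voom, the muscle level as a covariate, the digits of the tumor number as a term, without libraries with a mean skin marker value of 6 or more, and in the muscle-limited libraries.

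Kinetochore genes held the largest rise, that of Cenpf (CENP-F, a large outer kinetochore protein). It had 95.1, 112 and 154 CPM at day 22, against 52.6, 73.4 and 121 CPM at day 10, a log2 change of 0.53 ± 0.11 (limma adjusted p = 7.33e-05). Nuf2, a subunit of the NDC80 complex that grips microtubules, had 57.3, 60.9 and 64.5 CPM at day 22, against 34.8, 41.3 and 59.6 CPM at day 10, and rose by 0.38 ± 0.07 (limma adjusted p = 1.84e-05). At day 22 its values were narrow and met the day 10 range only at its top. Cenpe, the kinetochore motor CENP-E, rose by 0.38 ± 0.08 and Ndc80 by 0.23 ± 0.08, whereas Cenpa differed by -0.08 ± 0.08 and was not called. Of the spindle genes, Kif2c (MCAK, which takes microtubules apart at centromeres) rose the most, by 0.35 ± 0.07, with 57.7, 61.2 and 68.4 CPM at day 22, against 35.9, 43.9 and 63.7 CPM at day 10 (limma adjusted p = 5.49e-05). The other spindle genes, Kif4, Hmmr, Kif11, Nusap1 and Tpx2, rose by 0.15 to 0.33 on the log2 scale.

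Cytokinesis genes rose by less, from 0.14 ± 0.05 for Prc1, which bundles the central spindle, to 0.23 ± 0.09 for Ect2, which activates RhoA at the cleavage furrow. Racgap1, Kif23 and Kif20a lay between, and Anln, the furrow scaffold anillin, differed by -0.06 ± 0.08 and was not called. Both genes of chromosome structure rose. Top2a had 452, 502 and 549 CPM at day 22, against 291, 389 and 520.2 CPM at day 10, a log2 change of 0.26 ± 0.07 (limma adjusted p = 0.0012). Mki67, which coats mitotic chromosomes and is the antigen of the Ki-67 stain, had 445, 520.4 and 683 CPM at day 22, against 255, 358 and 520.1 CPM at day 10, and rose by 0.43 ± 0.10 (limma adjusted p = 0.000426). In both genes replicate 10 was the 1 day 10 library within the day 22 range.

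**Figure D2:**
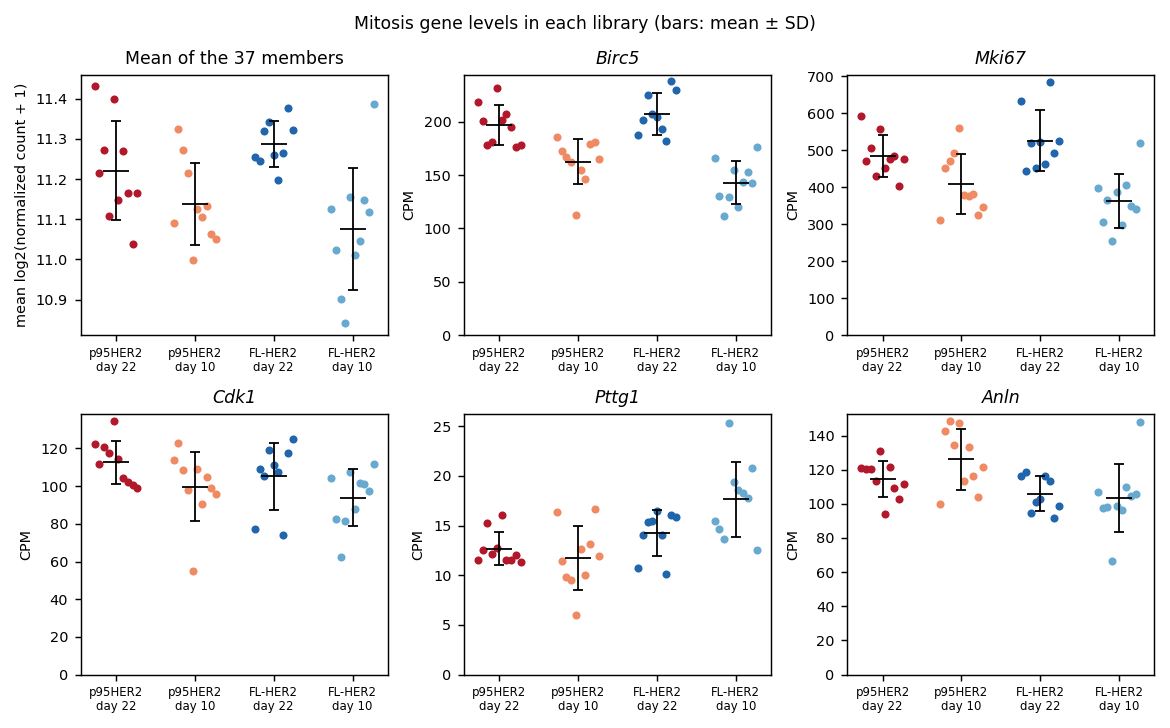
Levels in each of 39 libraries. The first panel gives the mean log2 value of the 37 mitosis genes, and the others give CPM of Birc5, Mki67, Cdk1, Pttg1 and Anln. Each point is 1 library, and black bars are the mean ± SD of a group. FL-HER2 day 22 libraries lie above FL-HER2 day 10 libraries without overlap for Birc5, and FL-HER2 day 10 libraries are the highest group for Pttg1.

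Muscle, fibroblast and endothelial markers moved with this comparison, as 9 of 20, 14 of 15 and 10 of 11 of them fell, while 8 of 10 T cell markers rose. Of the 5 skin markers tested 2 fell, of 12 macrophage markers 1 rose and 6 fell, and of 10 epithelial tumor markers 1 rose and 3 fell. Fibroblast markers took 0.359% ± 0.089 of reads at day 22 and 1.89% ± 0.61 at day 10 (SD, n = 9 and 10). With the muscle level of each library as a covariate 15 of the 37 genes rose. In the 21 muscle-limited libraries, those with 0.1% to 1.3% of reads from muscle markers, 11 did so (8 of these libraries are of FL-HER2 tumors at day 22 and 3 at day 10). With the number of digits in the tumor number as a term 9 did so. The FL-HER2 day 10 level then rests on replicates 7 and 9 alone, the only libraries of that group without 5 digits. Without the 11 libraries with a mean skin marker value of 7 or more, a limit chosen after seeing the data, 30 rose. The planned skin limit of 6 left 3 FL-HER2 libraries of day 10 and 8 of day 22. The count of rises under that limit is not given here. No share over all genes tested is given for these settings, so a general loss of calls cannot be told apart from a loss among the 37. Birc5, Bub1b, Cenpf, Kif2c and Nuf2 were called in all 16 settings tried, and 22 of the 29 genes were called whichever library was left out.

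In p95HER2 tumors fewer of the genes changed between the days. Birc5, Bub1b, Cdca8, Nuf2 and Nusap1 rose and Anln fell, so that 5 of 37 were higher, against 16.6% of all genes tested, and 1 was lower, against 18.6%. The count of rises is thus near the background. The median log2 change of the 37 was 0.09, against 0.00 over all genes tested. The 5 genes that rose are all among the 29 that rose in FL-HER2 tumors, which makes 5 of 5 of the one list and 5 of 29 of the other. Beside them, none of 20 muscle markers changed in p95HER2 tumors and 12 of 15 fibroblast markers fell.

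Cdca8 had the smallest adjusted p in p95HER2 tumors. It had 73.7, 76.9 and 92.6 CPM at day 22, against 54.6, 67.1 and 77.0 CPM at day 10, a log2 change of 0.20 ± 0.06 (limma adjusted p = 0.00968). Birc5 had 176, 198 and 231 CPM at day 22, against 113, 166 and 186 CPM at day 10, a log2 change of 0.22 ± 0.07 (limma adjusted p = 0.0128). In both genes the upper day 10 libraries reached the lower day 22 libraries. Nuf2 rose by 0.19 ± 0.07, Nusap1, which binds spindle microtubules near chromosomes, by 0.22 ± 0.08, and Bub1b by 0.19 ± 0.07. Anln had 94.4, 117 and 131 CPM at day 22, against 99.8, 127 and 149 CPM at day 10, a log2 change of -0.20 ± 0.08 (limma adjusted p = 0.0473). Its ranges overlapped for most of their length. Birc5 and Cdca8 kept their calls whichever of the 39 libraries was left out, whereas Nuf2 was called in 34 of these 39 fits, Nusap1 in 31, Bub1b in 22 and Anln in 18. None of the 6 genes was called in all 16 settings.

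Mki67, Top2a, Cdk1, Ccnb1, Plk1 and Foxm1 were not called in p95HER2 tumors. Mki67 had 404, 476 and 593 CPM at day 22, against 311, 381 and 561 CPM at day 10, with a log2 difference of 0.19 ± 0.10 (limma adjusted p = 0.116). Top2a had 389.6, 489 and 559 CPM at day 22, against 381, 456 and 531 CPM at day 10, with a difference of 0.03 ± 0.07. The Mki67 medians stood further apart than those of Top2a, and the groups overlapped in both genes. Cdk1 had 98.9, 113 and 134 CPM at day 22, against 54.9, 102 and 123 CPM at day 10 (log2 difference 0.13 ± 0.10). Ccnb1 had 74.4, 92.2 and 111 CPM at day 22, against 62.5, 80.9 and 103 CPM at day 10 (0.08 ± 0.07). In both the ranges overlapped, and neither gene was called. Plk1 had 86.9, 89.2 and 114 CPM at day 22, against 64.8, 94.9 and 107 CPM at day 10 (-0.03 ± 0.07). Foxm1 had 86.7, 93.8 and 121 CPM at day 22, against 72.1, 89.7 and 104 CPM at day 10 (0.07 ± 0.07). For Plk1 the median was lower at day 22, for Foxm1 it was higher, and neither difference was called. Ccnf and Kif20a had the largest adjusted p (limma, 0.99 each), with log2 differences below 0.001.

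Whether the change over time differed between the constructs was tested as the log2 change over time in p95HER2 tumors minus that in FL-HER2 tumors. None of the 37 genes was called, against 13.5% of all genes tested that were positive and 6.2% that were negative, while 1 was positive and 10 were negative at an unadjusted p under 0.05 (limma). The estimates ran mostly one way: 32 of the 37 were negative, with a median of -0.14 on the log2 scale against 0.04 over all genes tested. Over all genes tested 56.4% were positive. Cenpe had the smallest adjusted p, with -0.32 ± 0.12 (limma adjusted p = 0.0525). Kif2c (-0.25 ± 0.09) and Top2a (-0.24 ± 0.09) followed, and Pttg1 was the largest positive estimate, with 0.50 ± 0.19 (limma adjusted p = 0.0635). The estimates of Ccnb2 and Mad2l1 were 0.00 ± 0.09 and 0.01 ± 0.10. Quantile normalization gave 4 negative calls (Ttk, Cenpe, Kif2c and Top2a), against 11.9% of all genes tested under it, and with the muscle level as a covariate the median was -0.05 with no call.

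**Figure D3:**
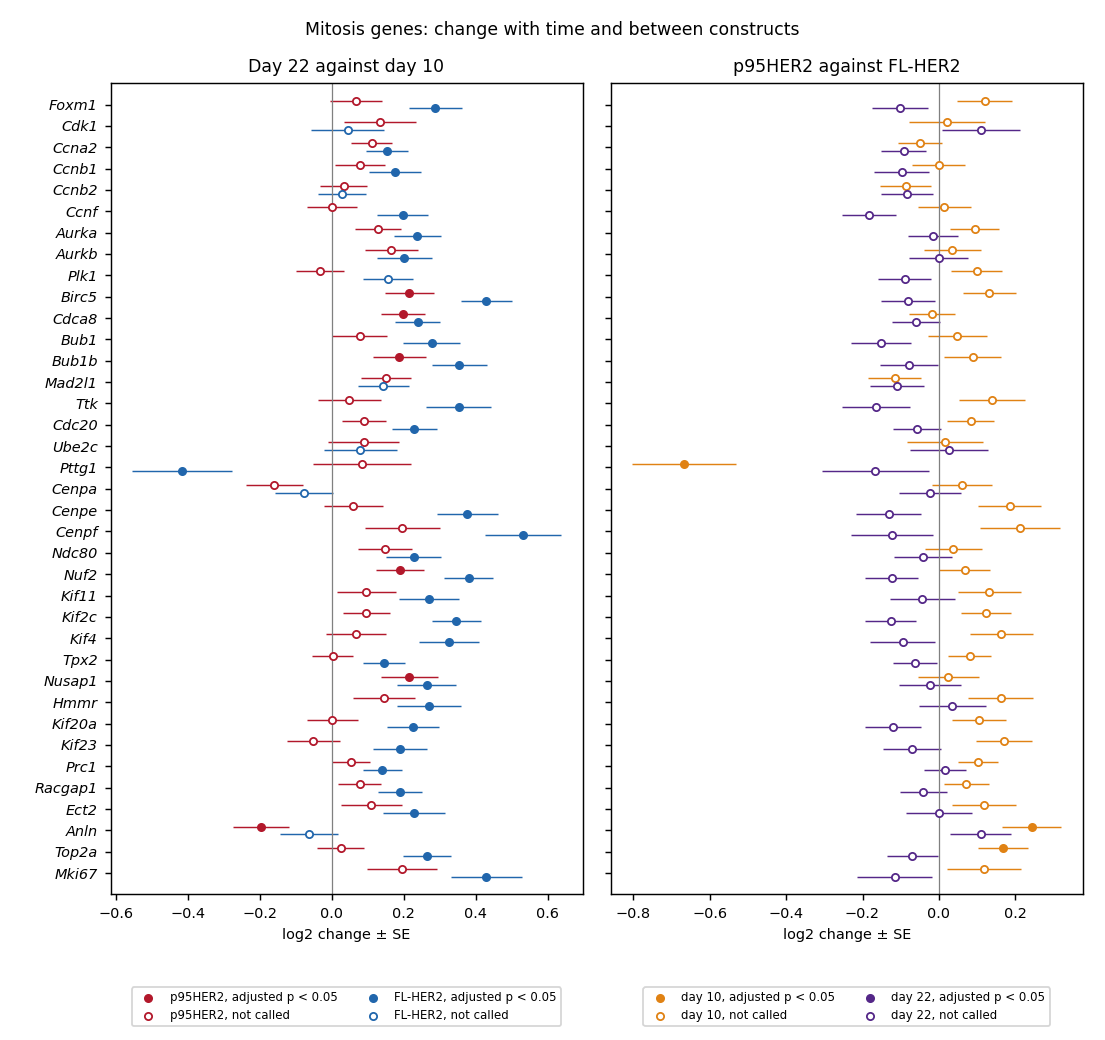
Log2 changes ± SE of the 37 mitosis genes, with day 22 against day 10 at the left and p95HER2 against FL-HER2 at the right. Filled points passed an adjusted p under 0.05 and open points did not. FL-HER2 points at the left lie right of the p95HER2 points in 32 of 37 genes, and Pttg1 at day 10 stands apart at the right.

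Between the constructs at day 10, Anln and Top2a were higher and Pttg1 was lower in p95HER2 tumors. This is 2 of 37 genes higher, against 15.2% of all genes tested, and 1 lower, against 26.1%. Pttg1 had 5.99, 11.7 and 16.6 CPM in p95HER2 tumors, against 12.6, 18.02 and 25.3 CPM in FL-HER2 tumors, a log2 change of -0.67 ± 0.14 (limma adjusted p = 0.000161). The ranges met between the upper p95HER2 and the lower FL-HER2 libraries. Anln had 99.8, 127 and 149 CPM in p95HER2 tumors, against 66.3, 102 and 148 CPM in FL-HER2 tumors, a log2 change of 0.24 ± 0.08 (limma adjusted p = 0.012). Top2a had 381, 456 and 531 CPM in p95HER2 tumors, against 291, 389 and 520.2 CPM in FL-HER2 tumors, a log2 change of 0.17 ± 0.07 (limma adjusted p = 0.0355). For Anln and Top2a the groups overlapped widely, with the FL-HER2 libraries reaching lower.

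The 37 genes had a median log2 difference of 0.09 at day 10, against -0.04 over all genes tested. Of the 37, 31 were positive, against 42.8% of all genes tested. Kif23, a motor of the central spindle, had 0.17 ± 0.07 (limma adjusted p = 0.0613), and Ccnb1 and Cdk1 had 0.00 ± 0.07 and 0.02 ± 0.10. All 20 muscle, 11 of 15 fibroblast, 11 of 12 macrophage and 9 of 11 endothelial markers were lower in p95HER2 tumors here. Of 10 T cell markers 1 was lower, and of 5 skin markers 1 was lower. Of 10 epithelial tumor markers 2 were higher and 2 lower. With the muscle level as a covariate the median of the 37 turned to -0.04 with no gene higher, and in the muscle-limited libraries it was -0.02 with none called. Those libraries are 4 of p95HER2 tumors and 3 of FL-HER2 tumors at day 10. All 3 FL-HER2 libraries, replicates 1, 7 and 8, pass the limit of 6 on the mean skin marker value. Their values were 6.05, 11.3 and 6.13, and libraries under the limit reached 5.97. Only replicate 7 thus stood clearly above it. With log2(CPM + 1) values 8 of the 37 genes were higher, against 21.4% of all genes tested, which is near the background.

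At day 22 none of the 37 genes was called between the constructs, against 2.98% of all genes tested that were higher and 1.54% that were lower in p95HER2 tumors. At an unadjusted p under 0.05 (limma), 0 were higher and 1, Ccnf, was lower, and voom called none. The log2 differences ran from -0.18 to 0.11 with SEs of 0.05 to 0.14, and their median was -0.08, against -0.01 over all genes tested. Of the 37, 32 were negative and 5 positive, against 47.6% of all genes tested that were positive. Ccnf had the smallest adjusted p (-0.18 ± 0.07, limma adjusted p = 0.145), followed by Bub1, Kif2c and Ttk. Ect2 and Aurkb had the largest, with differences of 0.00 ± 0.09 and 0.00 ± 0.08. Ccnf and Bub1 were called lower with the muscle level as a covariate, and Ccnf and Kif2c in the muscle-limited libraries. Both are given without the share over all genes tested in the same fit. None of the muscle or fibroblast markers was called in this comparison, and 6 of 10 T cell markers were lower.

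Within groups the genes moved together from library to library. Deviations of each library from its group mean were correlated over the 39 libraries, as a description. The median r over the 666 pairs of genes was 0.54, and 90.8% of pairs were above 0. Kif20a, a kinesin of the midzone, followed the mean of the other 36 genes most closely (r = 0.90), then Kif11, the motor that pushes the spindle poles apart (0.90), and Kif2c (0.89). Pttg1 was the 1 gene with a negative value (-0.26). Of the other genes tested, 57 (0.419%) had an r over 0.7 with the mean of the 37. The 10 most alike were Arhgap19 (0.86), Ncaph (0.86), Ckap2l (0.86), Cdca2 (0.84), Cip2a (0.84), Fancd2 (0.84), Depdc1a (0.83), Lmnb1 (0.83), Kif20b (0.83) and Nek2 (0.82). In FL-HER2 tumors 8 of these 10 rose at day 22, and Ckap2l (0.13, limma adjusted p = 0.147) and Fancd2 (0.23, limma adjusted p = 0.0709) did not pass. The 37 genes had a median SD of 0.15 on the log2 scale in p95HER2 tumors at day 22 and 0.17 at day 10. In FL-HER2 tumors it was 0.12 at day 22 and 0.20 at day 10. Over all genes tested the median SD was 0.151 in p95HER2 tumors at day 22 and 0.195 at day 10, and 0.186 in FL-HER2 tumors at day 22 and 0.190 at day 10.

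The muscle level of a library moved with the mean of the 37 genes. Over all 39 libraries the deviations from the group means had r = -0.58 (rho -0.48), and r = -0.47 without the 2 libraries farthest on the muscle axis. Within groups r was -0.58 in p95HER2 tumors at day 22, -0.75 at day 10, 0.44 in FL-HER2 tumors at day 22 and -0.86 at day 10. The relation thus did not hold in FL-HER2 tumors at day 22, and the part of muscle tissue in the differences between groups was not tested beyond the covariate and the muscle-limited libraries. T cell markers had r = -0.90 with the mean of the 37 genes in FL-HER2 tumors at day 10 and 0.52 at day 22.

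**Figure D4:**
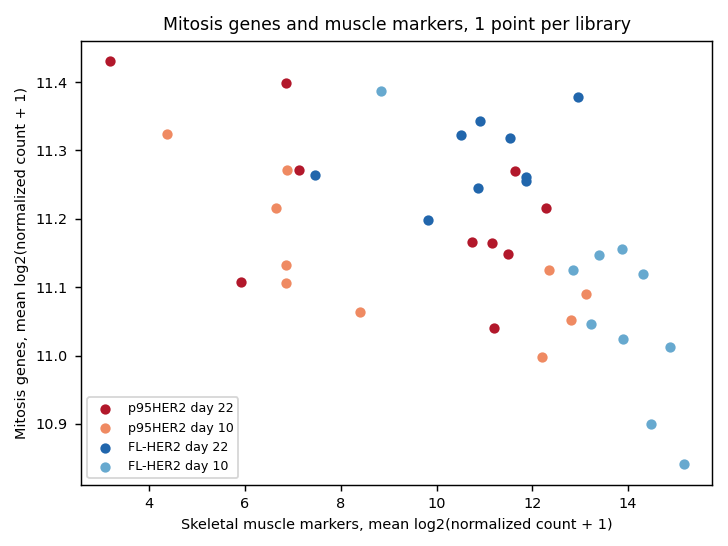
Mean log2 value of the 37 mitosis genes (vertical) against the mean log2 value of 20 skeletal muscle markers (horizontal), with 1 point per library, colored by group. FL-HER2 day 10 libraries gather at high muscle values, and within that group r is -0.86, while FL-HER2 day 22 libraries show no fall (r = 0.44).

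Long and short members parted from each other by library. Coding lengths came from the GENCODE M21 annotation of GRCm38, for all 37 genes and for 13102 genes tested (96.0%). Each gene's log2 values were first centred on its mean over the 39 libraries, and in each library the slope of the centred values on log2 coding length was taken over those genes. A slope is thus relative to the average library, and slopes average 0 over the 39. In each library also, the mean of the 18 members with a coding length above 1926 bases was set against the mean of the other 19. The long minus short difference followed the slope with r = 0.95 (rho 0.94) over the deviations of 39 libraries, with 0.92 without the 2 farthest libraries and 0.80 to 0.99 within the 4 groups. The long members are part of what the slope is taken over, so the 2 measures share libraries and a few genes. By single gene, Cenpf (0.82), Anln (0.81) and Mki67 (0.81) followed the slope most, and Pttg1 (-0.87), Ube2c (-0.67) and Cdk1 (-0.56) went most against it. Pttg1 has a coding length of 597 bases, Cdk1 of 891 and Mki67 of 9531.

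This relative slope averaged 0.004 ± 0.025 in p95HER2 tumors at day 22 and 0.029 ± 0.080 at day 10, and 0.006 ± 0.050 in FL-HER2 tumors at day 22 and -0.038 ± 0.054 at day 10 (SD). In FL-HER2 tumors 17 of 18 long members and 12 of 19 short ones were higher at day 22, with median log2 changes of 0.27 and 0.18. With the slope as a covariate 26 of the 37 genes rose in FL-HER2 tumors and 9 in p95HER2 tumors, and at day 10 Plk1 and Birc5 were the 2 genes higher in p95HER2 tumors in place of Anln and Top2a. These counts are given without the share over all genes tested in the same fit. Pttg1 was called lower under it both over time in FL-HER2 tumors and between constructs at day 10. Across the 37 genes the log2 change went with log2 coding length with r = 0.54 in FL-HER2 tumors over time, -0.04 in p95HER2 tumors over time, 0.54 between constructs at day 10, -0.22 at day 22 and -0.645 in the change between days, as a description across genes, which are not independent. What sets the slope was not tested.

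**Figure D5:**
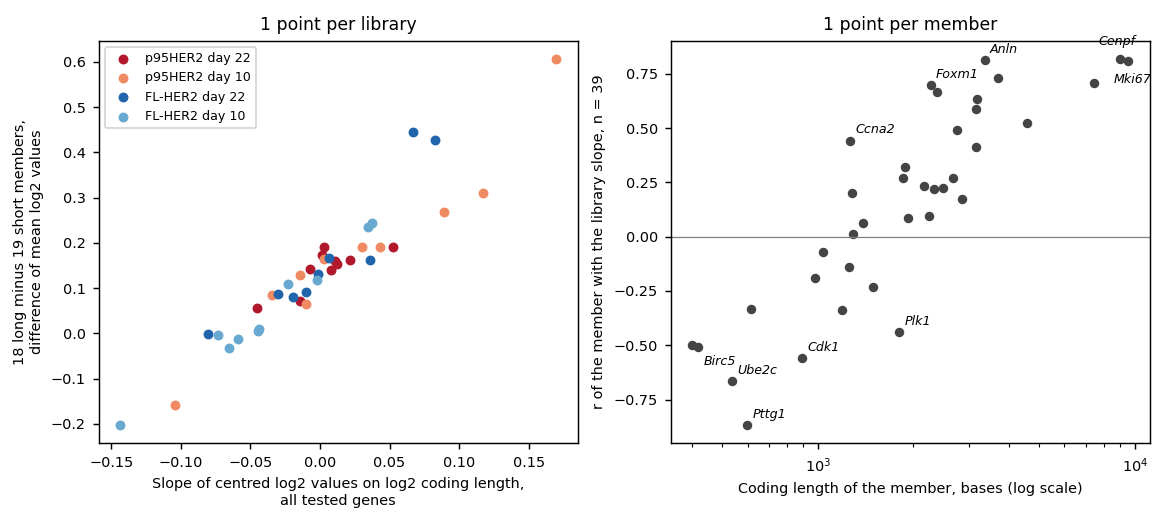
At the left, the difference of the mean log2 values of 18 long and 19 short mitosis genes against the slope of log2 values, centred on each gene's mean, on log2 coding length over all genes tested, with 1 point per library. At the right, the correlation over 39 libraries of each gene with that slope against its coding length on a log scale. Points at the left fall on a rising line, and at the right Pttg1 is lowest and Cenpf, Anln and Mki67 are highest.

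Other cell cycle genes were counted in the same comparisons. Of 76 other mitosis genes, 51 rose and none fell over time in FL-HER2 tumors (median log2 change 0.24), and 17 rose and 3 fell in p95HER2 tumors (0.09). DNA replication genes rose in both, with 34 of 44 higher in FL-HER2 tumors (0.30) and 34 of 44 in p95HER2 tumors (0.25), and none lower in either. Between the constructs at day 10, 15 of the 76 other mitosis genes were higher and 3 lower in p95HER2 tumors (median log2 difference 0.10), and 0 of the 44 replication genes were higher and 7 lower (-0.06). Spag5 (astrin, a spindle protein) averaged 137 ± 22.2 CPM in p95HER2 tumors at day 22 and 72.9 ± 8.14 CPM at day 10, and 144 ± 25.1 CPM in FL-HER2 tumors at day 22 and 59.1 ± 14.4 CPM at day 10. Its log2 changes over time were 0.84 ± 0.10 and 1.18 ± 0.10, above those of any of the 37 genes. Mcm6, a subunit of the replicative helicase, rose by 0.46 ± 0.06 in p95HER2 tumors and 0.48 ± 0.06 in FL-HER2 tumors. In the change between days 9 of the 76 other mitosis genes and none of the 44 replication genes were called, all 9 negative, such as Stil (-0.39 ± 0.12, limma adjusted p = 0.0197) and Psrc1 (-0.45 ± 0.14, limma adjusted p = 0.0254).

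Of 9 G1 cyclins and kinases, 2 rose and 3 fell over time in FL-HER2 tumors and 3 rose and 3 fell in p95HER2 tumors, and of 22 E2F, RB and DREAM-MuvB genes 10 rose and 4 fell in FL-HER2 tumors and 7 rose and 3 fell in p95HER2 tumors. Among them, Ccnd1 (cyclin D1, which starts G1 progression) averaged 1881 ± 202 CPM in p95HER2 tumors at day 22 and 1146 ± 106 CPM at day 10, and 2088 ± 215 CPM in FL-HER2 tumors at day 22 and 1065 ± 191 CPM at day 10. It rose by 0.65 ± 0.07 in p95HER2 tumors and 0.87 ± 0.08 in FL-HER2 tumors. Cdk6, a partner of D-type cyclins, fell in both, by 1.14 and 0.52 on the log2 scale, and the fall was larger in p95HER2 tumors (difference -0.62 ± 0.12, limma adjusted p = 0.000341). E2f1 rose by 0.29 ± 0.06 in p95HER2 tumors and 0.41 ± 0.06 in FL-HER2 tumors. Mybl1 (A-Myb, a relative of B-Myb) averaged 11.0 ± 1.48 CPM in p95HER2 tumors at day 22 and 11.2 ± 2.09 CPM at day 10, and 14.4 ± 1.84 CPM in FL-HER2 tumors at day 22 and 8.65 ± 2.02 CPM at day 10. Its change between days was called (-0.72 ± 0.15, limma adjusted p = 0.0012).

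All 7 CDK inhibitors changed over time in FL-HER2 tumors. Cdkn1a (p21, 0.50 ± 0.07), Cdkn2a (0.49 ± 0.10) and Cdkn2c (0.28 ± 0.06) rose, and Cdkn1c (p57, -2.55 ± 0.26), Cdkn2b (-0.52 ± 0.13), Cdkn2d (-0.33 ± 0.11) and Cdkn1b (p27, -0.18 ± 0.04) fell. In p95HER2 tumors Cdkn1a (0.21 ± 0.07) and Cdkn2c (0.27 ± 0.06) rose, Cdkn1c (-1.66 ± 0.26), Cdkn2b (-0.84 ± 0.13) and Cdkn1b (-0.32 ± 0.04) fell, and Cdkn2a and Cdkn2d were not called. Between the constructs at day 22, Cdkn2b was the 1 inhibitor called, with 14.2 ± 3.02 CPM in p95HER2 tumors and 10.3 ± 2.03 CPM in FL-HER2 tumors (log2 change 0.45 ± 0.13, limma adjusted p = 0.0371). At day 10 Cdkn2b (0.77 ± 0.13), Cdkn2a, Cdkn1a and Cdkn1b were higher and Cdkn1c (-1.57 ± 0.26) was lower in p95HER2 tumors.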

How the data were processed

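Poly(A) RNA of PB2 tumors was purified with an RNeasy Mini Plus kit and made into directional libraries, as the labels' protocols state. The submitters' processing notes name STAR 2.4.2a, DESeq2 and the build mm10. The counter, annotation and strand setting were not given in the sources used here, so reads of overlapping genes or near-identical copies may be shared. The authors deposited 1 table, of 39 libraries by 20520 genes. It is named as CPM, yet the deposited values are log2 of the normalized count plus 1: undoing the log2 gave whole multiples of 1 step in 100% of values (tolerance 0.001 reads). The plan took them as log2 values of normalized counts, and they were tested as deposited. Reads recovered from the step gave 1 CPM as 21.8 to 44.4 reads, and the spread between libraries sets most errors.

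Groups came from the labels, and replicate numbers follow the order of the records. The title and description of FL-HER2 day 10 replicate 8 give different tumor numbers, and its column follows the description. Genes that reached 1 CPM in 9 or more libraries (13650) were tested with limma 3.58.1 in R 4.3.3 (lmFit, contrasts.fit, eBayes with a trend), with 1 coefficient per group over all 39 libraries, 5 contrasts, two-sided, Benjamini-Hochberg adjusted over all genes tested, after a test on simulated data. Members and gene lists were chosen with earlier results of these data known. Genes are named by rule: 6 fixed members, the 4 smallest and 2 largest adjusted p and the extreme changes per comparison, called members by role, up to 2 genes per other list, all CDK inhibitors and the 10 genes most alike. Some genes this rule takes outside the 37 are not reported here. Alternatives covered pseudocounts, filters, scaling, the groups fitted, muscle, skin, tumor number, coding length and each library left out. Muscle-limited libraries, the skin limit of 7 and the slope on coding length, alone or with muscle, were chosen after seeing the data.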

Additional observations from a re-analysis of the deposited data

Results flagged for a closer look

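In 14 of 148 pairs of gene and group, 1 library stood apart from the others of its group by Dixon's test, where chance flags about 1 in 20. In p95HER2 day 10 replicate 5, 5 genes were flagged as the lowest of their group: Cdk1 at 54.9 CPM, Ccnb2 at 45.4 CPM, Aurka at 43.3 CPM, Ube2c at 63.5 CPM and Cenpa at 107 CPM. That library also had the steepest slope of log2 values on log2 coding length of the 39 (0.170), and those 5 genes are among the 19 short members. It was the lowest of its group for further members without a flag, among them the long members Tpx2, Kif20a and Kif23. In FL-HER2 day 10 replicate 3, Cdk1 at 62.6 CPM, Ube2c at 53.4 CPM and Cenpa at 110.5 CPM were flagged as the lowest of their group, and its slope was 0.034. The other 6 lay in separate libraries. Kif4 was lowest at 46.8 CPM in p95HER2 day 22 replicate 9. Ccnf was lowest at 36.5 CPM in FL-HER2 day 22 replicate 2, Hmmr was highest at 81.6 CPM in replicate 7 and Racgap1 was highest at 175.5 CPM in replicate 4 of the same group. In FL-HER2 tumors at day 10, Bub1 was highest at 63.6 CPM in replicate 10 and Anln was lowest at 66.3 CPM in replicate 4. The causes were not tested.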

How the results depend on the processing

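No paired analysis was possible because the labels give no replicate numbers that the groups share. Pseudocounts of 0.1 and 5 and a filter at 5 CPM kept every count of members called. A count below that stands without a share over all genes tested has no background to be set against. With the digits term the FL-HER2 day 10 level rests on replicates 7 and 9 alone. Members higher over time in FL-HER2 tumors (29) numbered 15 with the muscle level as a covariate, 15 with muscle and slope on coding length together, 11 in muscle-limited libraries and 9 with the digits of the tumor number as a term. The 1 lower, Pttg1, became 0 with quantile normalization, log2(CPM + 1), voom, the muscle level, the digits term, without libraries high in skin markers (a mean of 6 or more) and in muscle-limited libraries, and 2 with the slope alone or with muscle. Over time in p95HER2 tumors, 11 were higher with log2(CPM + 1) and with voom (24.4% and 24.5% of all genes tested), 9 with the slope alone or with muscle, and 2 in muscle-limited libraries. The 1 lower, Anln, became 0 with no filter, median-of-ratios factors, quantile normalization, log2(CPM + 1), voom, both skin limits and muscle-limited libraries, and 2 with the slope alone or with muscle. At day 10, 7 were higher with median-of-ratios factors, 6 with quantile normalization, 8 with log2(CPM + 1) and 6 with voom, against 20.3%, 28.6%, 21.4% and 21.2% of all genes tested, so near or below the background, and 1 with only the groups compared, 1 without libraries with a mean skin value of 7 or more, and 0 with the muscle level, the digits term, the skin limit of 6, muscle-limited libraries and both covariates. Lower at day 10 were 0 in muscle-limited libraries and 3 with both covariates. At day 22, 2 were lower with the muscle level, in muscle-limited libraries and with both covariates. In the change between days 3 were lower with median-of-ratios factors, 4 with quantile normalization, 3 with log2(CPM + 1) and 1 with voom, against 8.16%, 11.9%, 8.94% and 7.93% of all genes tested, and 2 with the slope alone or with muscle. The causes were not tested. No called member changed sign under any of these settings.

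Scalings moved the median log2 change of all genes over time in FL-HER2 tumors from -0.03 to 0.08, and the share of rises among all genes called from 40.4% to 62.5% with quantile normalization. At day 10 that share was 36.7% and became 63.4%, in p95HER2 tumors over time 47.1% and became 64.6% with voom, and in the change between days 68.5% and became 42.7% with quantile normalization.

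Leaving out each library in turn gave 22 to 31 members higher over time in FL-HER2 tumors, and 1 lower each time. In p95HER2 tumors it gave 2 to 7 higher: 2 without p95HER2 day 22 replicate 1 or 5, and 3 without replicates 3, 7 or 8 of that group or 5, 8, 9 or 10 of p95HER2 day 10. It gave 0 to 1 lower: 0 without FL-HER2 day 10 replicate 1, 2, 3, 5, 6, 7 or 8, FL-HER2 day 22 replicate 4 or 5, p95HER2 day 10 replicate 2, 3, 4, 7 or 10, or p95HER2 day 22 replicate 3, 4, 6, 8, 9 or 10. At day 10 it gave 1 to 10 higher: 10 without FL-HER2 day 10 replicate 10, 4 without p95HER2 day 10 replicate 1, 5 or 10, and 1 without replicates 2, 4 or 6 of that group or 1, 2, 4 or 6 of FL-HER2 day 10. It gave 1 to 2 lower there (2 without FL-HER2 day 10 replicate 3), and at day 22 0 higher and 0 to 1 lower (1 without p95HER2 day 22 replicate 3). In the change between days it gave 0 to 1 higher (1 without FL-HER2 day 10 replicate 10 or p95HER2 day 10 replicate 1 or 9) and 0 to 7 lower: 7 without FL-HER2 day 10 replicate 10, 4 without p95HER2 day 10 replicate 1, 3 without replicate 10 of that group, FL-HER2 day 10 replicate 9 or p95HER2 day 22 replicate 1, 2 without p95HER2 day 10 replicate 5 and 1 without FL-HER2 day 10 replicate 5, FL-HER2 day 22 replicate 5 or 6, p95HER2 day 10 replicate 9 or p95HER2 day 22 replicate 3 or 5.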
